A study of Homo sapiens with 4 samples.

Results

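The HOX genes were examined in ATAC-seq peak lists of a human mammary epithelial line before and after transformation by oncogenic HRAS. All protein-coding genes named HOXA, HOXB, HOXC or HOXD followed by a number were taken from the GENCODE annotation of hg19, which gave 39 of 20098 protein-coding genes on the autosomes and X (0.194%). They lay in 4 clusters, with 11 genes in HOXA (chr7:27132612-27239710), 10 in HOXB (chr17:46605888-46806112), 9 in HOXC (chr12:54332615-54449814) and 9 in HOXD (chr2:176957449-177055635). Peaks were listed across each cluster and 100 kb on either side, and the 4 stretches are called the HOX windows. Together they spanned 1.32 Mb and held 45 of the listed peaks, which merged into 33 of the 60886 regions found in any library.

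MCF10A is an immortalized, nontransformed and near-diploid epithelial line from the mammary gland, and 2 replicates of the parental line were profiled. G12V is the same line after lentiviral delivery of an HRAS copy with the G12V change, together with a GFP vector used for tracking, and it also had 2 replicates. Both grew in the same medium with EGF, insulin, hydrocortisone, cholera toxin and horse serum. The G12V cells were selected with hygromycin, and by the study they stopped growing at first and resumed after a few weeks. No such steps are described for the parental line, so vector, selection, outgrowth and HRAS cannot be told apart. By the study's methods the replicates are biological, but whether they came from separate transductions is not stated, so the p-values measure only the spread between these libraries. In ATAC-seq the Tn5 transposase inserts adapters into open DNA, and a peak marks a stretch where insertions pile up.

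HOX genes encode homeodomain transcription factors that give cells their position along the body axis. Their order on the chromosome follows where and when they act, so that paralog groups 1 to 3 are called anterior, 4 to 8 central and 9 to 13 posterior. In cells that do not use them the clusters are commonly covered by Polycomb-marked, compact chromatin, and boundaries bound by the insulator protein CTCF separate the active from the silent portion. Proteins of the PBX and MEIS families bind DNA together with HOX proteins.

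The lists of the 4 libraries differed in length, with 12888 peaks in MCF10A replicate 1, 34463 in MCF10A replicate 2, 14042 in G12V replicate 1 and 46673 in G12V replicate 2 on the autosomes and X. The number of reads behind each list is unknown, so a site absent from a short list may have been just under the caller's threshold. Peak strength is given as a percentile of the score within a library's own list, where 0 is the weakest and 100 the strongest peak. Of 10 mammary epithelial marker genes, 4 had a promoter peak in some library (KRT17, KRT8 and ITGB4 among them), while the promoters of KRT5, KRT14, KRT18, CDH1, EPCAM and TP63 had none. Markers were read at the annotated gene start only, so a peak at another start of TP63 or another marker would be missed. Of 6 markers of other cells, the mesenchymal gene VIM had a promoter peak in 3 libraries and COL1A1 in 1, while PTPRC, CD3E, ALB and GFAP had none. Over all protein-coding promoters the share with a peak in some library was 49.7%, so the count of epithelial markers was near that of genes at large.

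A promoter reached from 1000 bp before the gene start to 500 bp after it. Few HOX promoters carried a peak. No HOX promoter had one in MCF10A replicate 1, against 20.4% of all protein-coding promoters, and none in G12V replicate 1, against 22.2%. For 0 of 39 the 95% exact binomial interval reaches 9.03%, and a limit of 3 counts in 39 is a share of 7.69%. In MCF10A replicate 2, 5 of 39 had a peak (12.8%, 95% exact binomial interval 4.3 to 27.4%), against 41.1% of all promoters. In G12V replicate 2 the number was again 5 of 39 (12.8%, 4.3 to 27.4%), against 43.8%. The HOX share thus lay below that of all promoters in each of the 4 libraries, and the upper end of its interval did too. Intervals here cover counting error only, and neighbouring HOX promoters share a cluster, so they are not independent draws.

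**Figure D1:**
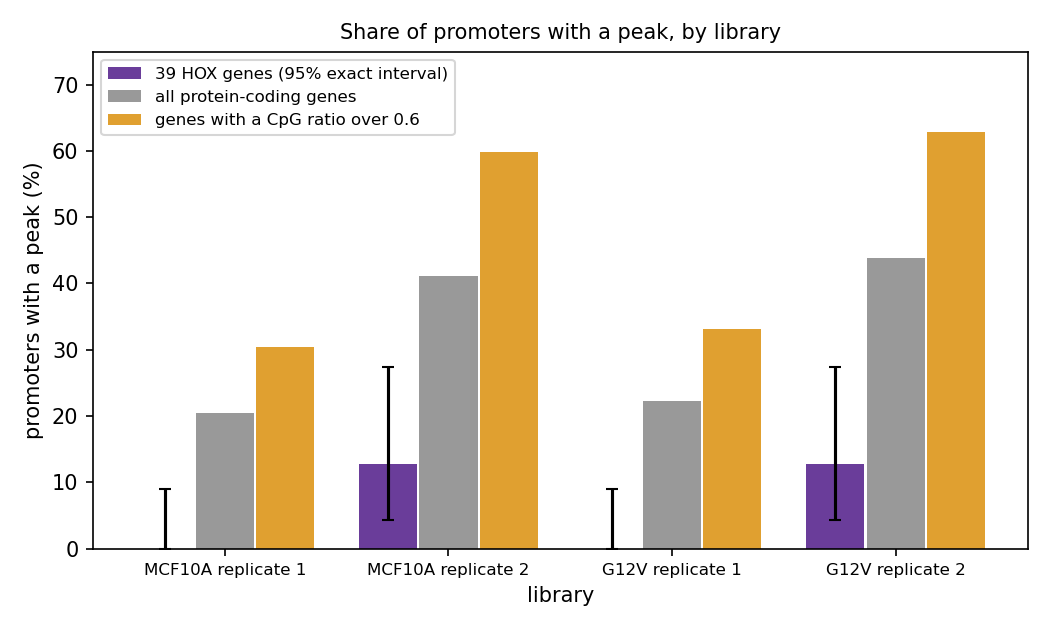
Share of promoters with a peak (vertical axis, %) in each of the 4 libraries (horizontal axis) for the 39 HOX genes, with 95% exact binomial intervals, for all 20098 protein-coding genes, and for all genes whose start has an observed to expected CpG ratio over 0.6. The HOX bars stand at 0, 12.8, 0 and 12.8% and are below both other bars in every library.

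Over the 4 libraries, 8 of the 39 HOX promoters (20.5%) had a peak in at least 1 list, compared with 49.7% of all promoters, and 31 HOX promoters had none. They included HOXA4, HOXA5, HOXA6, HOXB1, HOXB5, HOXC5 and HOXC13. By cluster they made up 4 of 11 genes in HOXA, 2 of 10 in HOXB, 2 of 9 in HOXC and 0 of 9 in HOXD. By position along the cluster they were 2 of 8 anterior, 5 of 15 central and 1 of 16 posterior genes. These counts are small, and no difference among the clusters or positions was tested. Of the 8, 6 were called in 1 library and 2, HOXA5 and HOXC13, in 2 libraries.

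**Figure D2:**
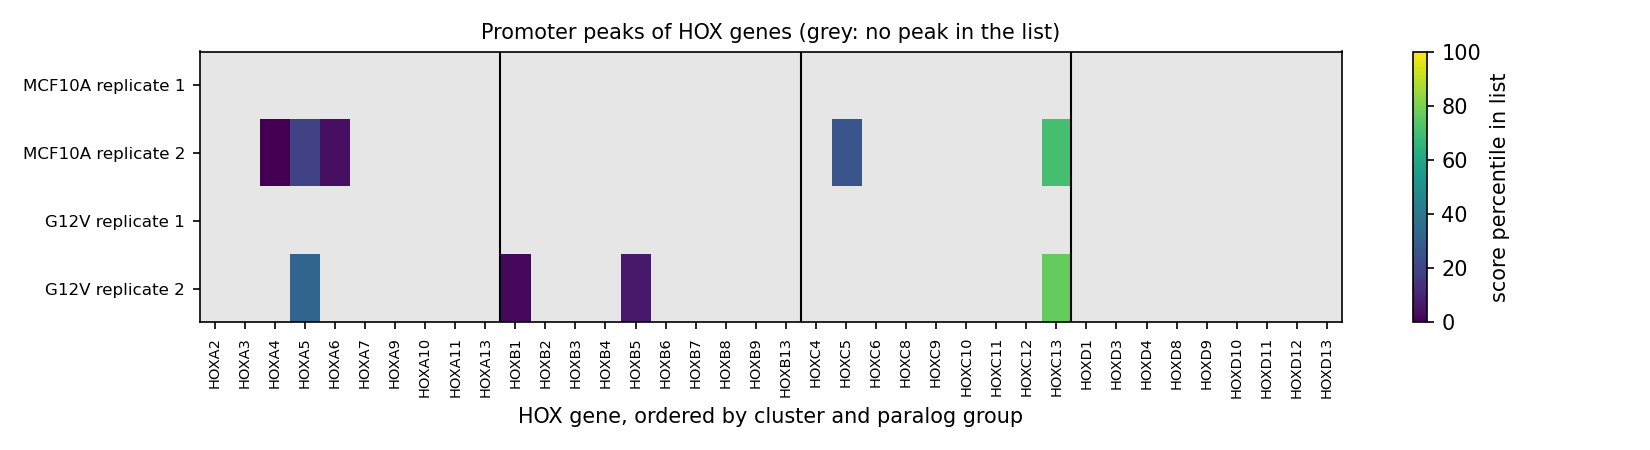
Promoter peaks of the HOX genes reported by name (columns, by cluster and paralog group) in the 4 libraries (rows), coloured by the score percentile within the library's list, with grey for no peak. Both replicate 1 rows are empty, HOXA5 and HOXC13 are coloured in both replicate 2 rows, and all 9 HOXD columns are grey.

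The strongest HOX promoter was that of HOXC13, the most posterior gene of its cluster, whose product is needed for hair and nail formation. Its peak (merged region chr12:54332040-54332787) lay at percentile 70.6 in MCF10A replicate 2 and 76.5 in G12V replicate 2, with no peak in either replicate 1 library. HOXA5, a central gene for which loss of expression in breast cancer has been described, had a merged region at chr7:27182740-27183741. Its percentile was 19.3 in MCF10A replicate 2 and 32.7 in G12V replicate 2, again without a peak in the replicate 1 libraries. For both genes the values of the cell types were close, and the presence of the peak went with the replicate number and not with the cell type. The other 6 promoter peaks were weak and came from 1 library each. HOXC5 was at percentile 26.3, HOXA6 at 4.28 and HOXA4 at 0.0087, all in MCF10A replicate 2. HOXB5 was at 6.78 and HOXB1, which acts in hindbrain patterning, at 2.16, both in G12V replicate 2. The HOXA4 peak, with a score of 40.01, was almost at the lowest score of the lists, 40.

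The sequences that follow are the 150 bp windows at the midpoint of the strongest peak of 2 HOXA promoters, chosen because HOXA5 was called in 2 libraries and HOXA4 held a motif match. They are written 5′ to 3′ on the plus strand of hg19, with capitals for a match to a motif searched on both strands. At HOXA4 (chr7:27170527-27170676) the capitals mark the composite PBX and HOX motif TGATNNAT, met by TGATGGAT on the plus strand. The HOXA5 window (chr7:27183315-27183464) had no match to the 4 motifs searched.
HOXA4 promoter: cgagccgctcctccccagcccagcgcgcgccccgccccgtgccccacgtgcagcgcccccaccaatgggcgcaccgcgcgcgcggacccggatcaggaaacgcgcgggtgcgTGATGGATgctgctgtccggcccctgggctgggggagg
HOXA5 promoter: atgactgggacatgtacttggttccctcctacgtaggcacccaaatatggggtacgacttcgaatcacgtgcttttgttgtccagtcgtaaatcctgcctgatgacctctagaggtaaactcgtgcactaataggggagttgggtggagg

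Comparing MCF10A with G12V asked whether HOX promoters opened or closed on transformation. The mean number of HOX promoters with a peak was 2.5 ± 3.54 in MCF10A and 2.5 ± 3.54 in G12V (SD, n = 2 libraries each), a difference of 0 (exact two-sided permutation test, p = 1). With 2 libraries against 2 the smallest p that this test can give is 0.333, so the design cannot reach 0.05. No HOX promoter was gained, that is called in both replicates of G12V with no peak in MCF10A, where 0.856% of all promoters were. No HOX promoter was lost, with the opposite pattern, where 0.517% of all promoters were. None had a peak in all 4 libraries (shared), compared with 13.6% of all promoters. Each of the first 2 classes rests on a short list: without G12V replicate 1, 3 HOX promoters were gained, and without MCF10A replicate 1, 3 were lost. At the gained and lost rates of all promoters, 39 genes are too few for a count of 0 to say that HOX promoters differ from the rest.

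The low count did not rest on the choice of promoter window alone. With 2000 bp on each side of the gene start, 15 of 39 HOX genes (38.5%) had a peak in some library, against 54.4% of all genes. The added genes were HOXA3, HOXA9, HOXB2, HOXB8, HOXC4, HOXC12 and HOXD12, of which HOXD12 was called in 3 libraries. With the starts of all annotated transcripts, 12 of 39 (30.8%) had a peak, against 58.9% of all genes, and HOXA9, HOXA10, HOXB2 and HOXB8 were added. The annotated starts of HOXA3, HOXB3, HOXB7, HOXC4, HOXC6 and HOXD3 lie at distant upstream exons, and each of these annotated genes contains another HOX gene. The start of HOXB6 lies beside that of HOXB3, and that of HOXA9 lies within HOXA10. HOXA3, HOXB3, HOXB6, HOXB7, HOXC4, HOXC6 and HOXD3 had no peak with the starts of all transcripts either. In each library the HOX share stayed below the share of all genes under both settings, for example 23.1% against 45% in MCF10A replicate 2 and 23.1% against 47.9% in G12V replicate 2 with the wider window. At equal list sizes, with the 12888 best-scoring peaks of each library, HOXC13 was the only HOX gene with a promoter peak, and it had one in both replicate 2 libraries. The share of all promoters with a peak was then between 20.4 and 25.9%.

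Promoters rich in the dinucleotide CpG are open in most cell types, so the base composition of the HOX promoters was compared with that of the rest. The ratio of observed to expected CpG was computed from 250 bp upstream to 50 bp downstream of each gene start. Its median was 0.715 over the 39 HOX promoters (range 0.176 to 1.04) and 0.694 over all promoters, and 29 HOX promoters (74.4%) were above 0.6, against 58% of all. Among all promoters, the median ratio was 0.827 for those with a peak in some library and 0.378 for those without. Among HOX promoters it was 0.709 for the 8 with a peak and 0.715 for the 31 without, so the separation seen over all genes was not present here. Of promoters with a ratio over 0.6, 5 of 29 HOX promoters (17.2%) had a peak in some library, compared with 70.2% of all. HOX promoters with a high ratio and no peak included HOXA13 (1.01), HOXB7 (0.938), HOXC4 (0.934), HOXC9 (0.932) and HOXD9 (0.924). HOXA9 (0.176) and HOXD4 (0.244) had the lowest ratios of the family. Each ratio was taken at the annotated gene start only. That of HOXA9 (chr7:27214799) lies within HOXA10, so the ratio does not describe other starts of HOXA9. The annotated starts of HOXB7 and HOXC4 lie upstream of other HOX genes, so their ratios are limited in the same way.

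Peaks were then listed across the whole windows. MCF10A replicate 1 had 2 peaks in the HOX windows, MCF10A replicate 2 had 18, G12V replicate 1 had 5 and G12V replicate 2 had 20. As a share of the list this was 0.0155% (95% exact binomial interval 0.00188 to 0.056%), 0.0522% (0.031 to 0.0825%), 0.0356% (0.0116 to 0.0831%) and 0.0429% (0.0262 to 0.0662%) in the same order. The 4 intervals overlapped. The mean share was 0.0339% ± 0.026 in MCF10A and 0.0392% ± 0.00512 in G12V (SD, n = 2 each), and they differed by 0.00536 percentage points, less than the replicates of MCF10A did from each other (p = 1 by the same exact permutation test). Within replicate 1 the share was higher in G12V by 0.0201 points, while within replicate 2 the difference, G12V minus MCF10A, was -0.00938 points. Without MCF10A replicate 1 the difference turned to -0.013.

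The windows were not empty of peaks as a whole. Their density was 1.51 and 3.78 peaks per Mb in the replicate 1 libraries of MCF10A and G12V, below the 4.54 and 4.95 of the genome. In the replicate 2 libraries it was 13.6 and 15.1 peaks per Mb, beside 12.2 and 16.5 in the genome. Between the cluster ends alone the density was 21 in MCF10A replicate 2 and 24.9 in G12V replicate 2, above the genome, and 1.91 and 3.83 in the replicate 1 libraries, below it. The replicate 1 densities inside the clusters rest on 1 and 2 peaks, and single clusters departed from the sums: HOXD was at 20.4 in G12V replicate 1, and HOXB at 0 and 15 in the replicate 2 libraries of MCF10A and G12V, below the genome. By distance, counting peaks by their midpoint, the density up to 100 kb outside the clusters was 10 peaks per Mb in both replicate 2 libraries, and at 100 to 500 kb it was 11.9 in MCF10A and 18.1 in G12V.

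**Figure D3:**
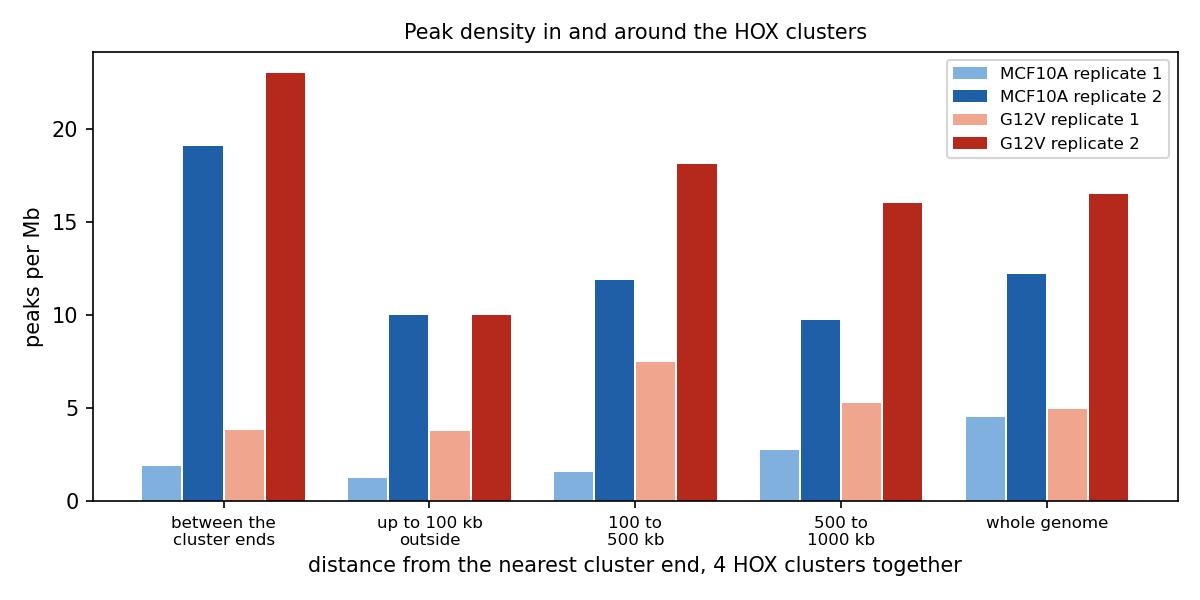
Peaks per Mb (vertical axis) between the cluster ends, at 3 distances outside them and over the whole genome, for the 4 HOX clusters together and by library. Between the cluster ends the replicate 2 bars stand above the whole-genome bars and the replicate 1 bars below them. Peaks in and around the clusters are counted by midpoint here. The replicate 2 bars between the cluster ends thus stand at 19.1 in MCF10A and 23 in G12V, lower than when any overlap is counted.

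The peaks in the windows were mostly low in their lists. Their median percentile was 39.3 in MCF10A replicate 1, 26.7 in MCF10A replicate 2, 32.3 in G12V replicate 1 and 36.6 in G12V replicate 2, where 50 is the middle of a list. The replicate 1 medians rest on 2 peaks in MCF10A, at 8.62 and 69.9, and on 5 peaks in G12V. Of the 18 peaks of MCF10A replicate 2, 15 were under percentile 50, as were 13 of the 20 of G12V replicate 2. The peaks in the upper part of the lists were few and included those at 3 flanking genes, LNPK, MTX2 and TTLL6, beside HOXC13 and the site upstream of HOXD12. With the 12888 best peaks of each library, the windows held 2 peaks in each MCF10A library, 4 in G12V replicate 1 and 5 in G12V replicate 2.

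**Figure D4:**
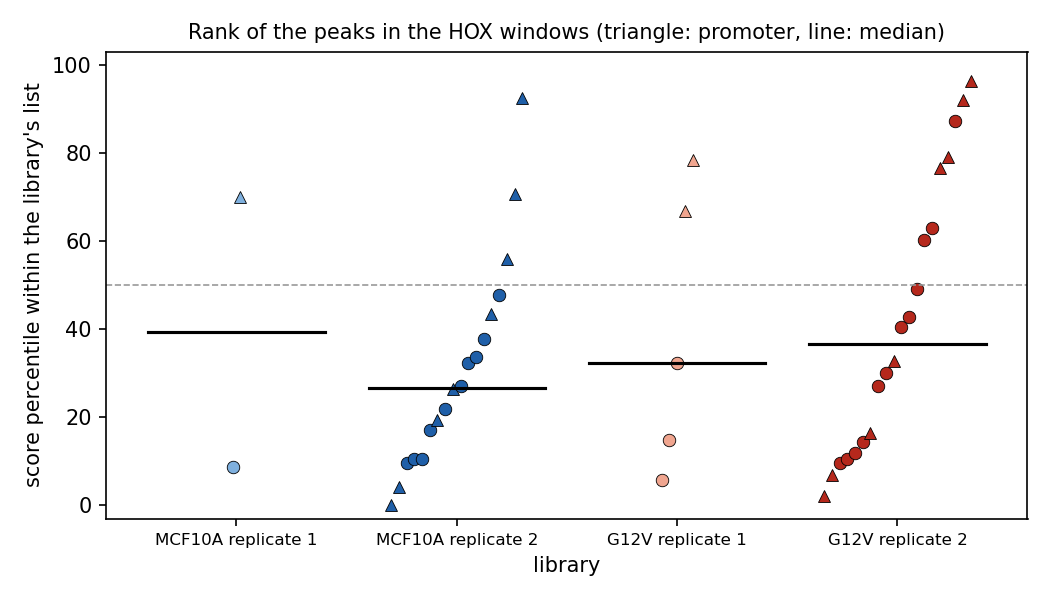
Score percentile within the library's list (vertical axis) of every peak in the HOX windows, by library (horizontal axis), with triangles for peaks at a protein-coding promoter, circles for other peaks and a line at the median. All 4 medians lie below 50, at 39.3, 26.7, 32.3 and 36.6, with the replicate 1 medians resting on 2 and 5 peaks.

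Peaks at a promoter of any protein-coding gene numbered 1, 8, 2 and 8 in the windows, in MCF10A replicates 1 and 2 and G12V replicates 1 and 2, and the other peaks 1, 10, 3 and 12. The promoter share was 50, 44.4, 40 and 40%, compared with 29.3, 22.5, 28.8 and 17.3% of the whole lists. The windows hold 39 HOX and 11 other protein-coding gene starts in 1.32 Mb, against 20098 in 2836 Mb of genome. No share was corrected for this density of starts. The mean share in the windows was 47.2% ± 3.93 in MCF10A and 40% ± 0 in G12V (SD, n = 2 each). This difference of -7.22 percentage points had p = 0.333, the smallest the exact two-sided permutation test can give here. The replicate 1 shares rest on 2 and 5 peaks, and the groups overlapped at equal list sizes (50 and 100% in MCF10A, 50 and 80% in G12V) and without flanks (0 and 45.5%, 0 and 38.5%). With the better-scoring 50% of each list they met at 100% (100 and 100% in MCF10A, 100 and 57.1% in G12V). Those shares rest on 1, 3, 2 and 7 peaks. The difference was -20.6 points with 2000 bp promoters, -21.4 with the better-scoring 50% of each list, -32.8 with the starts of all transcripts and -4.44 without MCF10A replicate 1.

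Of the 33 merged regions, 12 were in HOXA, 7 in HOXB, 4 in HOXC and 10 in HOXD, flanks included, and 21 lay between the cluster ends. Of them 1 was gained (3.2% of all merged regions were), 0 were lost (2.14% of all) and 1 was shared (8.36% of all). These counts moved when a library was left out, with 13 gained without G12V replicate 1, 3 when MCF10A replicate 2 was dropped and 2 when G12V replicate 2 was, and with 11 lost without MCF10A replicate 1 and 1 without MCF10A replicate 2. Most were seen in 1 library, namely 25 of 33 (75.8%) beside 56.4% of all regions. The 25 divided into 11 of MCF10A replicate 2, 12 of G12V replicate 2 and 1 of each replicate 1 library. With a peak in either replicate counted, 14 regions (42.4%) were in G12V only, against 40.9% of all regions, 12 (36.4%) in MCF10A only, against 20.8%, and 7 (21.2%) in both, against 38.3%. Regions with peaks in the replicate 2 libraries only were 27 of 33 (81.8%), compared with 66.6% of all regions. At a protein-coding promoter lay 11 of 33 (33.3%), compared with 15.1% of all regions, and 8 of the 11 were HOX promoters. Gene starts are denser in the windows than in the genome, and this share was not corrected for that. Counted per gene, fewer HOX promoters had a peak in some library (20.5%, against 49.7% of all promoters).

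**Figure D5:**
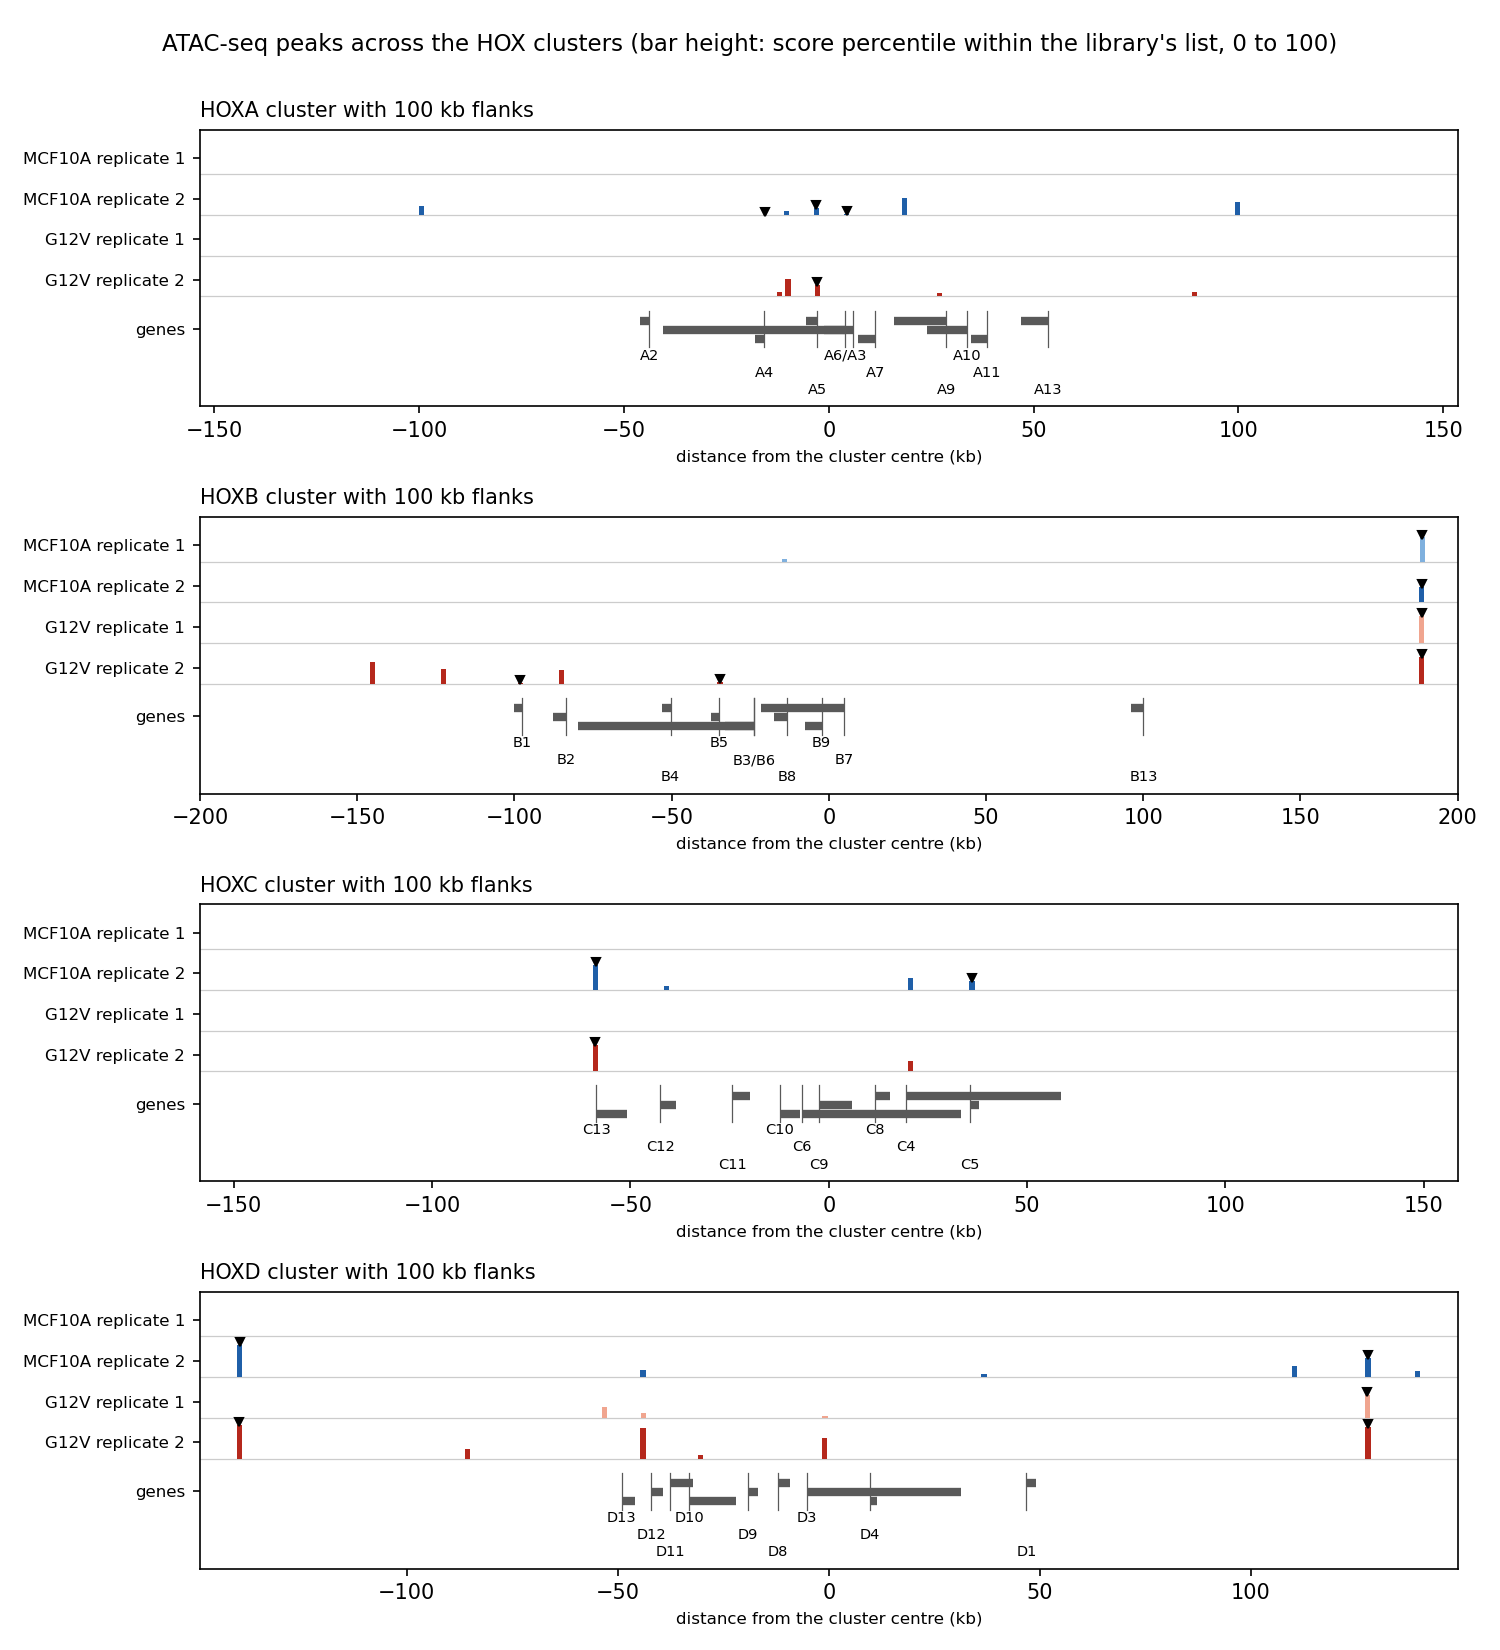
Peaks across each HOX cluster with 100 kb flanks. The horizontal axis is the distance from the cluster centre in kb, each of the 4 rows is a library, bar height is the score percentile within its list (bar width is not the peak width), triangles mark peaks at a protein-coding promoter, and grey bars are the HOX genes with a tick at each start. A gene not reported by name and its promoter peak are not drawn. The tall bars are at the flanking genes of HOXB and HOXD, at HOXC13 and upstream of HOXD12, and the replicate 1 rows of HOXA and HOXC are empty.

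The gained region lay in the HOXD cluster (chr2:177005051-177005991), within an intron of HOXD3 and 4181 bp downstream of its annotated start. HOXD3 is an anterior gene of the cluster, but its annotated gene also contains HOXD4. The gained region lay between HOXD8 and HOXD4, both central genes. The region was at percentile 5.65 in G12V replicate 1 and 60.3 in G12V replicate 2, with no peak in either MCF10A library. The G12V replicate 1 peak, with a score of 43.57, was close to the threshold of 40, and with the better-scoring 50% of each list the region was no longer called in both. At equal list sizes it also dropped out, and 2 other HOXD regions met the definition, the ones upstream of HOXD12 and at MTX2, both of which had weaker MCF10A replicate 2 peaks that this setting removed.

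The site upstream of HOXD12 (chr2:176961785-176963210) lay 2025 bp before the start of that posterior gene, between HOXD13 and HOXD12, and was the most often called site inside a cluster, with peaks in 3 libraries. Its percentile was 21.8 in MCF10A replicate 2, 14.8 in G12V replicate 1 and 87.2 in G12V replicate 2. The value of G12V replicate 2 stood far above the other 2, and its peak was the strongest in any library between the ends of a HOX cluster. A region in an intron of HOXC4 was called in both replicate 2 libraries (chr12:54411699-54412132), 1201 bp downstream of the gene start, at percentile 33.6 in MCF10A and 30.1 in G12V. That intron also lies within HOXC6, and the annotated HOXC4 gene contains HOXC5. Elsewhere in HOXA, an MCF10A replicate 2 peak (chr7:27175621-27175953, percentile 10.6) and a G12V replicate 2 peak (chr7:27176032-27176434, percentile 49.1) were neighbours that did not overlap, and so counted as separate regions.

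The windows of these 3 sites are given because they are the gained region and the sites inside a cluster, other than HOXA5 and HOXC13, that were called in more than 1 library. Capitals in the HOXD12 window (chr2:176962423-176962572) mark a CTCF match on the minus strand with 1 mismatch. The HOXD3 window (chr2:177005374-177005523) has no match to the 4 motifs and a GC content of 72%. The HOXC4 window (chr12:54411843-54411992) has no match either.
HOXD3 intron: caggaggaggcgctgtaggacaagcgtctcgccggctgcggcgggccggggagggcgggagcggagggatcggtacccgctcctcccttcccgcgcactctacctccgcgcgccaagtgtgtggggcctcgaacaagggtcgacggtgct
HOXD12 upstream: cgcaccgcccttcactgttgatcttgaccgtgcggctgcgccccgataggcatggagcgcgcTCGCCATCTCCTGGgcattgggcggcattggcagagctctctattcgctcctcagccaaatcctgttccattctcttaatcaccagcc
HOXC4 intron: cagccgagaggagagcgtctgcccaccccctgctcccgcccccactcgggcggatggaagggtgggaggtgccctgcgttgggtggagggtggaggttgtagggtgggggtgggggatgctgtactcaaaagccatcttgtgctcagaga

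The other leading regions of each cluster, by mean percentile, were mostly outside the HOX genes. In HOXD they were the promoter of LNPK (chr2:176865972-176867615), at percentile 92.4 in MCF10A replicate 2 and 96.4 in G12V replicate 2, and the promoter of MTX2 (chr2:177133801-177134939), a mitochondrial transport gene, at 56 in MCF10A replicate 2, 66.7 in G12V replicate 1 and 92 in G12V replicate 2. These genes flank HOXD on its opposite sides. In HOXB the shared region was the promoter of TTLL6 (chr17:46894237-46894948), 88481 bp from the start of HOXB13, at percentiles 69.9, 43.5, 78.4 and 79 in MCF10A replicates 1 and 2 and G12V replicates 1 and 2. It was followed by 2 intergenic regions on the side of HOXB1, at percentiles 63 (chr17:46560568-46561252) and 42.8 (chr17:46583210-46583594), both in G12V replicate 2 alone. Of the 7 HOXB regions, 5 were in G12V replicate 2 only, while of the 12 HOXA regions 5 were in G12V replicate 2 only and 6 in MCF10A replicate 2 only. In HOXA the leading regions were the G12V replicate 2 peak named above (49.1), a region in HOXA9 (chr7:27204131-27205078) at 47.8 and a region in EVX1 (chr7:27285548-27286364) at 37.8, the latter 2 in MCF10A replicate 2 alone. In HOXC they were HOXC13, the HOXC4 intron and HOXC5. Of 11 other protein-coding genes that start within the HOX windows, 3 had a promoter peak in some library, namely LNPK, MTX2 and TTLL6. Among all protein-coding promoters 49.7% had one, so a low count in the windows was not confined to HOX genes, though 11 genes are few.

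Many regions were centred on coding exons. The midpoint lay in a coding exon for 9 of the 33 regions (27.3%), compared with 2.62% of all merged regions. In HOX genes these were HOXA9, HOXA10, HOXB1, HOXB2, HOXB8, HOXC5 and HOXC12, each in 1 library, and the flanking genes EVX1 and MTX2 made up the rest. With the starts of all transcripts, HOXA9, HOXA10, HOXB2 and HOXB8 each had a promoter peak in that same library. Coding sequence covered 3.24% of the HOX windows and 7.07% of the stretch between the cluster ends, against 1.25% of the genome, which is a smaller difference than that between the shares of regions. The HOXB8 region (chr17:46691743-46692127, percentile 8.62) was the only peak of MCF10A replicate 1 inside a cluster. The HOXB2 region (chr17:46620553-46621283) was at percentile 40.5 in G12V replicate 2, the HOXA10 region (chr7:27213016-27213459) at 9.67 in the same library, and the HOXC12 region (chr12:54350062-54350530) at 10.6 in MCF10A replicate 2. The median GC content of the 150 bp windows was 62.7% over the 33 regions (range 25.3 to 78%) and 48.7% over all regions, with a median of 9 and 2 CpG dinucleotides. Regions centred on coding exons were found on both sides of that median, and the part of coding sequence and base composition in the calls was not tested.

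The motifs were searched in the 150 bp windows, on both strands. A CTCF match, with up to 1 mismatch, was in 4 of 33 windows (12.1%), compared with 6.56% of all regions, and the site upstream of HOXD12 and the MTX2 promoter were among the 4. An AP-1 match, TGACTCA or its reverse complement TGAGTCA, was in 4 (12.1%), compared with 15.9% of all regions. All 4 lay away from promoters, namely 1 at 3800 bp upstream of HOXA4 (chr7:27174021-27174377), the intergenic HOXB region at percentile 42.8, 1 upstream of MTX2 (chr2:177116752-177117079) and 1 within that gene (chr2:177145958-177146393). The PBX and HOX motif TGATNNAT was in 3 (9.09%), compared with 7.66% of all regions, and HOXA4 and the intergenic HOXB region at percentile 63 were among them. A p53 match was in 0 of 33, compared with 1.26% of all regions. With 33 windows these counts cannot separate the HOX regions from the rest, and a match is a description of the letters and not of binding.

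Genes that work with the HOX proteins or regulate their clusters were read at their own promoters in the same way. Of 9 cofactor genes of the PBX, MEIS and PKNOX families, 6 had a promoter peak in some library, where 49.7% of all protein-coding promoters did. MEIS2 had one in all 4 libraries, at percentiles 12.7 and 86.9 in MCF10A replicates 1 and 2 and 37.7 and 94.8 in G12V replicates 1 and 2. PBX3 was at 44.2 and 93.5 in the MCF10A replicates and at 91.9 in G12V replicate 2. MEIS1 was at 69.1 in MCF10A replicate 2 and at 27 and 75.8 in the G12V replicates, and PKNOX1 at 90.7, 73.3 and 83.8 in the same libraries. MEIS3 and PKNOX2 were among those with none.

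Of 10 Polycomb genes, which encode repressors that keep HOX clusters silent, 2 had a promoter peak, beside the same 49.7%. These were RNF2 in all 4 libraries (percentiles 34.7 and 88.4 in MCF10A, 59.9 and 96.2 in G12V) and EZH2 in 3 (80 in MCF10A replicate 2, 30.2 and 90.9 in G12V). Of 8 Trithorax and demethylase genes, which act against that repression, 7 had one, beside 49.7% of all promoters, and ASH2L had one in all 4 libraries, as did 13.6% of all promoters. By library the count was 3 and 5 in MCF10A replicates 1 and 2 and 2 and 5 in G12V replicates 1 and 2. Some of the 7 were called in 1 library only and stood low in its list. No difference between these short lists was tested. Both boundary genes had one, RAD21 in all 4 libraries and CTCF in the replicate 2 libraries. Of 9 upstream regulators, the retinoid receptor genes RARG and RXRB had a promoter peak, each weak and in 1 library. RARG was at percentile 6.37 in G12V replicate 2 and RXRB at 17.5 in G12V replicate 1. In none of these lists was a promoter gained, and in none of them but the mammary epithelial list, through ITGB4, was one lost. Of all protein-coding promoters 0.856% were gained and 0.517% lost, so such short lists cannot be told apart from the rest.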

How the data were processed

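MCF10A and G12V cells were profiled by ATAC-seq, 2 replicates each. The authors aligned reads to hg19 with Bowtie, moved read starts to the transposition centre and called peaks with MACS. The deposited lists hold, for each library, a position and a score per peak (lowest 40), which is the caller's p-value on a negative log10 scale times 10. As the score varies with depth, it entered only as a percentile within a list. Reads per library are unknown here.

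Peaks of the 22 autosomes and X were merged at an overlap of at least 1 bp. Gene models were those of GENCODE release 44, lifted to GRCh37. Motif searches allowed 1 mismatch for CTCF, 3 for p53 and 0 for the others. Library values were compared by exact two-sided permutation tests (threshold 0.05). The regions named were each gained, lost or shared region and the 3 of highest mean percentile per cluster; regions singled out for a coding exon, a motif match or a neighbouring peak were named after their values were seen. The members and gene lists were chosen with earlier results of these data known. The merging and the motif search were tested on simulated data. Python 3.11.15, numpy 2.4.6, scipy 1.17.1 and matplotlib 3.10.9 were used.

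As alternatives, lists were cut to their better-scoring 50% or to 12888 peaks each, flanks were dropped, promoters were set to 2000 bp on each side or to the starts of all transcripts, peaks were merged at an overlap of at least 50% or within 200 bp, each library was left out, and a replicate block was used. Densities by distance, the CpG ratio and the coding exon counts were added after seeing the data. PECAM1 was not analysed here, and results for some other genes and sequences are not reported here.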

Additional observations from a re-analysis of the deposited data

How the results depend on the processing

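The replicate 2 lists were the longer ones and gave most HOX regions, so list length limits each comparison, as do 2 libraries per cell type. The 1 gained region became 0 with the better-scoring 50% of each list and 2 at equal list sizes, and the 1 shared region became 0 under both settings and without flanks, where TTLL6 falls outside. No class count changed when merging needed an overlap of 50% of the shorter peak or took in peaks within 200 bp. When 1 library was left out, gained regions ranged from 1 to 13 (13 without G12V replicate 1, 3 without MCF10A replicate 2, 2 without G12V replicate 2) and lost regions from 0 to 11 (11 without MCF10A replicate 1, 1 without MCF10A replicate 2). HOX promoters called in both G12V and neither MCF10A library ranged from 0 to 3 (3 without G12V replicate 1), and the opposite class from 0 to 3 (3 without MCF10A replicate 1). A class that needs fewer libraries is larger by definition. The difference in HOX promoters per library ranged from -2.5 (without MCF10A replicate 1 or G12V replicate 2) to 2.5 (without MCF10A replicate 2 or G12V replicate 1) and that in the share of the list from -0.013 to 0.0237 percentage points, with -0.013 without MCF10A replicate 1, so neither had a stable direction. The groups of promoter shares overlapped at equal list sizes and without flanks, and met at 100% with the better-scoring 50% of each list. With the replicate number as a replicate block, which the labels do not tie to a shared batch, the differences stayed at 0, 0.00536 and -7.22, with exact permutation p of 1, 1 and 0.5, where 0.5 is the smallest p a block of 2 pairs can give.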
